A study of Mus musculus with 25 samples.

Results

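Endothelial genes were examined in cultured cardiac myocytes, as 34 genes that mark the inner lining of blood and lymph vessels. Members were taken from the array's annotation: a probe set had to name 1 of these genes and no other, and 33 of the 34 genes had such a probe set, 1 each, among 19938 genes so measured. Selp (P-selectin) was not analysed here. The cultures were neonatal mouse cardiac myocytes from WT mice or from TG mice, which carry a CHF1/Hey2 transgene under the mlc2v promoter, which is active in ventricular myocytes. Myocytes were kept in serum-free medium (WT no serum, 5 cultures; TG no serum, 6) or were given 20% fetal bovine serum for 24 hours (WT serum, 7; TG serum, 7). The methods call the cultures independent and describe the preparations as nearly pure by sarcomeric myosin staining, and the strain, the litters and the age beyond neonatal are not given in the sources used here. RNA was hybridized to Affymetrix Mouse Gene 1.0 ST arrays, and each value is a log2 signal after Robust Multichip Analysis (RMA), so that a difference of 1 is a doubling of signal.

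Endothelial cells line vessels as a sheet joined by VE-cadherin (Cdh5) and PECAM-1 (Pecam1). They read growth signals through the VEGF receptors (Kdr, Flt1, Flt4) and the angiopoietin receptor Tek with its relative Tie1, under transcription factors such as Erg and the SoxF proteins Sox7, Sox17 and Sox18. In the heart a capillary runs beside almost every myocyte, so that endothelial cells are a frequent companion of myocytes in a dissociated heart. CHF1/Hey2 is a Hairy-related repressor and Notch target of the ventricle and of arteries.

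Promoters are shown for Emcn (endomucin), Tek and Cd34. Their signals had a positive correlation with Cdh5 in the 3 groups tested, which passed adjustment in at least 1, and their windows held a motif match. For Cd34 the correlation passed adjustment in TG serum myocytes alone. Other genes with such a correlation had windows without a match, which are named below and not shown. Prox1, which went the opposite way, is shown as well. It is the transcription factor of lymphatic endothelium that is also made by cardiac myocytes. Each window runs from 250 bases before to 50 bases after a RefSeq start site in GRCm38.p6 and is given 5′ to 3′ on the gene's strand. Capitals mark a match, on either strand, to the ETS motif CAGGAAG (the binding letters of Erg and its relatives) or to the GATA motif GATAAG. The windows are chr3:137340828-137341127 (plus strand) for Emcn, chr4:94739039-94739338 (plus strand) for Tek, chr1:194938571-194938870 (plus strand) for Cd34 and chr1:190170778-190171077 (minus strand) for Prox1.
Emcn: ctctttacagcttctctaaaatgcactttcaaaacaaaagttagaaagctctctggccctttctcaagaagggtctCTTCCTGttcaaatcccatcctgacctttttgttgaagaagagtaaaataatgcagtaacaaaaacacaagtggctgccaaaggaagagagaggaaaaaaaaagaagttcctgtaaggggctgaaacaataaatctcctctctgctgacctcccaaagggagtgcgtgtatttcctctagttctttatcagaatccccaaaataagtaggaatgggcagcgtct
Tek: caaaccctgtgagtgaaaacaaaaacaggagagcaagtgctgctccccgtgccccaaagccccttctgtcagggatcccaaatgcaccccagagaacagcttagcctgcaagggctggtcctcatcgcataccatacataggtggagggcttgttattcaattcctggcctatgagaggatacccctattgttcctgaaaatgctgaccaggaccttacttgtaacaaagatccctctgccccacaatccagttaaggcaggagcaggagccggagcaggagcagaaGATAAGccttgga
Cd34: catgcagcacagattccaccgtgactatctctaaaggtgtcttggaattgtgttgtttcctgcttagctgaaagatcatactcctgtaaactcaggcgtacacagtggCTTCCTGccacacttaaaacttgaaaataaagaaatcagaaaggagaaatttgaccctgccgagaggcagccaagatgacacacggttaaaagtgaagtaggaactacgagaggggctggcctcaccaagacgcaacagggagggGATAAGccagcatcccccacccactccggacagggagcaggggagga
Prox1: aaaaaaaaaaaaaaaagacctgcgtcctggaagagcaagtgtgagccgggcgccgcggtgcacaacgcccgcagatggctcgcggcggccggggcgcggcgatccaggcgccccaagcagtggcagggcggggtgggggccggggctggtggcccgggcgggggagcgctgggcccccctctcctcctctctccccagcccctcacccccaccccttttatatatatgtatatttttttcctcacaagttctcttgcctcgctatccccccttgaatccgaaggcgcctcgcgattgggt
The RefSeq table held 22 windows for 16 of the 34 genes. CAGGAAG was found in 7 of the 22 windows, belonging to Sele, Cd34, Egfl7, Emcn, Robo4 and Erg, and in 13.3% of all 32851 windows. GATAAG was found in 3 windows, of Cd34, Tek and Erg, and in 7.44% of all windows. Tie1, Flt4, Eng, Kdr and Flt1 also had a positive correlation with Cdh5 in the 3 groups tested. It passed adjustment in all 3 groups for Tie1, in both serum groups for Flt4 and in TG serum myocytes alone for Eng, Kdr and Flt1. The windows of these genes held neither motif and are not shown. The E-box CACGTG, a motif of Hairy-related factors, and the SOX motif ACAATGG were in 0 of the 22 windows, and in 7.15% and 3.66% of all. A match is a run of letters and not a measured binding site, and the windows that lack one say nothing of the factor.

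CHF1/Hey2 signal was higher in every TG culture than in any WT culture of the same serum set. Hey2 stood between 7.94 and 9.36 in TG serum myocytes against 6.59 to 7.36 in WT serum myocytes, a difference of 1.81 (SE 0.20, limma adjusted p = 0.00972), and between 7.08 and 8.55 against 6.12 to 6.37 without serum, a difference of 1.58 (SE 0.26, limma adjusted p = 0.853). Array medians were 5.26 to 5.36 in WT and 5.21 to 5.33 in TG serum myocytes. Without serum they were 5.02 to 5.09 in WT and 4.99 to 5.04 in TG myocytes. The SD over probe sets, as the median over arrays, was 2.55 in WT and 2.57 in TG serum myocytes. Without serum it was 2.12 in WT and 2.13 in TG myocytes. Serum and this difference in scale cannot be told apart, so each genotype contrast was made inside 1 serum set. Levels with and without serum stand side by side without a comparison. A list of 14 sarcomere and calcium-handling genes of cardiac myocytes (Myh6, Myh7, Tnnt2 and others) had a mean signal of 10.5 to 12.1 in the 25 cultures, and all 14 genes were above background in every group. Markers of other cells were measured as well. The 12 fibroblast genes had list means of 7.75 to 8.86 with serum and 7.81 to 8.97 without. The 11 macrophage genes had list means of 6.11 to 7.16 and 5.19 to 6.74.

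All 33 endothelial genes were measured above the level of silent genes in the serum-treated cultures, and most were in the others. That level was taken from 1027 olfactory receptor genes, most of which are silent outside the nose, as the 95th percentile of their group means, which was 4.60 in WT serum, 4.50 in TG serum, 4.62 in WT no serum and 4.61 in TG no serum myocytes. With serum, 33 of 33 genes lay above it in both genotypes, as did 70.0% and 70.6% of all genes. Without serum, 27 of 33 lay above it in WT and 26 of 33 in TG myocytes, against 68.0% and 67.5% of all genes. The genes not above it were Flt4 (the VEGF-C receptor), Sox17, Plvap (the diaphragm protein of fenestrated capillaries), Gpihbp1 and Fabp4 (capillary handling of lipid) and Aplnr (the apelin receptor), and in TG myocytes also Kdr. At the 99th percentile of the olfactory genes the counts were 23 and 21 with serum and 13 and 12 without. The share of all genes above that stricter level was not computed, so these counts are not set against genes in general. In bulk RNA, fewer cells of a type and less RNA per cell cannot be told apart. Signals of different probe sets do not rank the genes by transcript number.

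**Figure D1:**
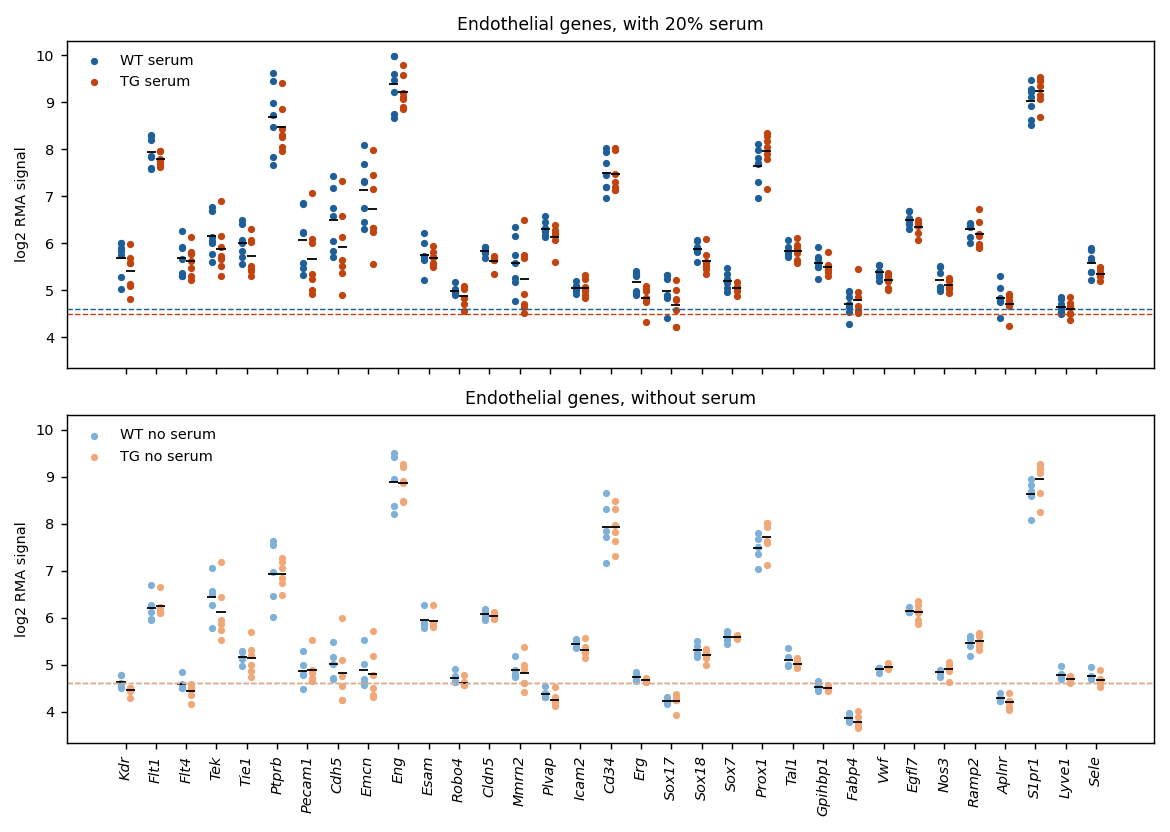
Log2 RMA signal of 33 endothelial genes in each culture, with serum (upper panel) and without (lower panel), ordered by role. Points are cultures, short black lines are group means and dashed lines are the 95th percentiles of 1027 olfactory receptor genes in each group. With serum all 33 group means of either genotype lie above the dashed lines, and points of WT and TG cultures overlap for every gene.

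The VEGF and angiopoietin receptors were among the genes well above this level with serum. Flt1, a decoy for VEGF-A, had group means of 7.95 ± 0.31 (SD, n = 7) in WT and 7.79 ± 0.13 (SD, n = 7) in TG serum myocytes. Ptprb, the phosphatase that acts on Tek and VE-cadherin, had means of 8.68 ± 0.75 and 8.46 ± 0.50. Kdr, the main signalling receptor of VEGF-A, stood close to the background level without serum, at 4.65 ± 0.13 in WT (n = 5) and 4.46 ± 0.08 in TG myocytes (n = 6), and at 5.69 ± 0.39 and 5.41 ± 0.41 with serum. Tek had means of 6.44 ± 0.47 and 6.12 ± 0.60 without serum and of 6.15 ± 0.44 and 5.88 ± 0.52 with serum. Emcn, a sialomucin of the endothelial surface, was at 4.89 ± 0.39 and 4.82 ± 0.55 without serum and 7.13 ± 0.65 and 6.72 ± 0.84 with serum. The SD of Cdh5, Pecam1, Emcn and Mmrn2 over 7 TG serum cultures lay between 0.74 and 0.84, while that of Cldn5, Sele and Sox7 lay between 0.087 and 0.13.

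The leading feature of the endothelial genes was this spread between cultures of 1 group, which several of them shared. With serum, Cdh5 was at 5.70, 6.05, 7.43, 7.18, 6.75, 5.83 and 6.58 in WT cultures 1 to 7. In TG cultures 1 to 7 it was at 6.13, 5.38, 5.53, 5.64, 6.58, 7.33 and 4.89. WT cultures 3 and 4 and TG culture 6 were thus the high ones, and TG culture 7 was the lowest. Pecam1 followed the same order closely, at 5.32, 5.47, 6.83, 6.86, 6.21, 5.59 and 6.24 in the WT cultures and 6.02, 5.24, 5.00, 5.35, 6.10, 7.06 and 4.92 in the TG cultures. Without serum, Cdh5 was at 4.69, 5.48, 5.02, 4.73 and 5.18 in WT cultures 1 to 5 and at 4.25, 4.25, 4.56, 5.09, 6.00 and 4.76 in TG cultures 1 to 6. Here WT culture 2 and TG culture 5 were the high ones.

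**Figure D2:**
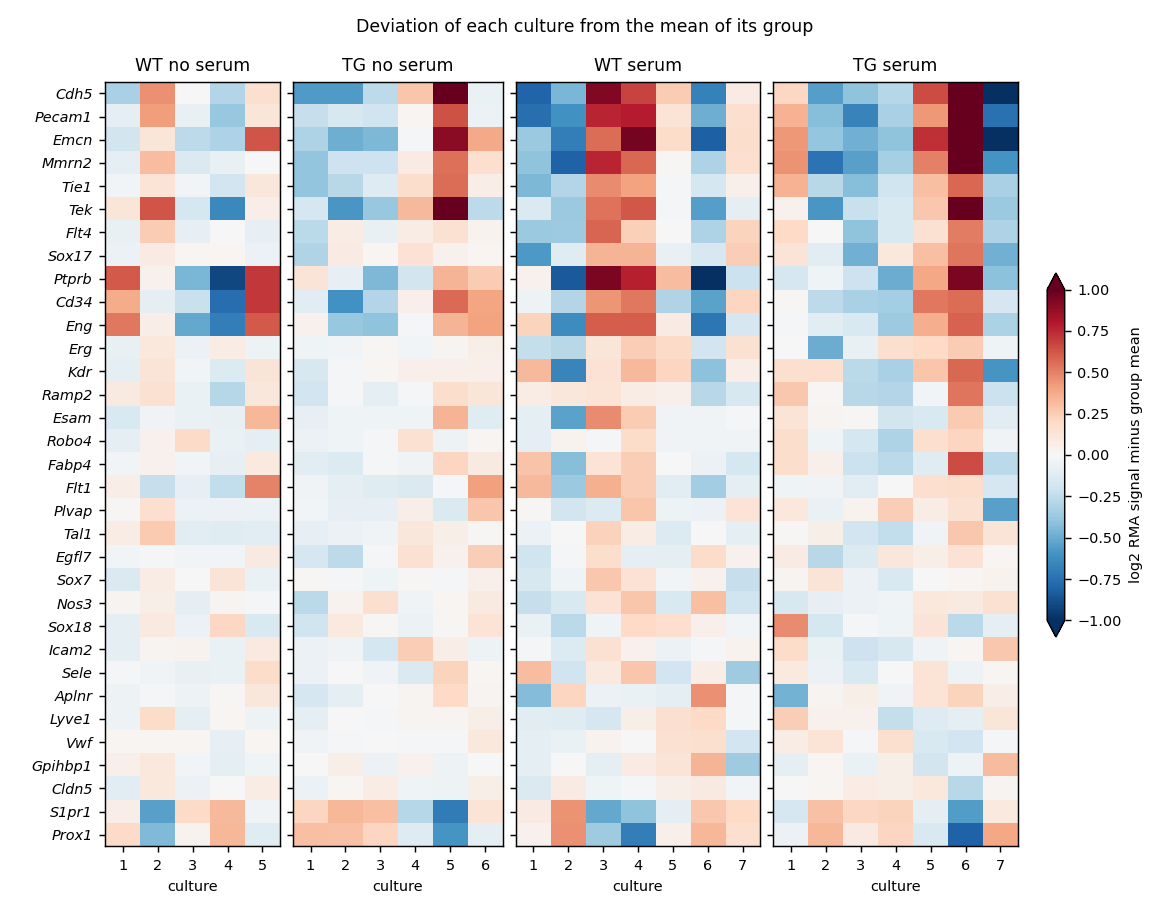
Each column is a culture and each row a gene, ordered by its correlation with Cdh5 within groups over 14 serum-treated cultures. Colour gives the log2 signal minus the mean of the gene in its group, from -1 (blue) to 1 (red), with values beyond that drawn in the end colours. The upper rows turn red together in WT serum cultures 3 and 4, TG serum cultures 5 and 6 and TG no serum culture 5, where the 2 bottom rows, S1pr1 and Prox1, turn blue.

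Correlation with Cdh5 was computed within each group of at least 6 cultures, for 32 genes in 3 groups, and the exact permutation p was adjusted over these 96 relations. The 5 WT no serum cultures were too few. Pecam1 had a Pearson r of 0.98 in WT serum (rho 0.89, exact permutation p = 0.00238, adjusted 0.0254), 0.97 in TG serum (rho 0.96, adjusted exact p = 0.0238) and 0.96 in TG no serum myocytes (rho 0.94, adjusted exact p = 0.0286). Without the 2 cultures farthest from the median of Cdh5, its r was 0.97, 0.89 and 0.73. Mmrn2 (a matrix protein of the endothelial surface), Tek and Tie1 also passed in all 3 groups, with r of 0.90, 0.96 and 0.94 for Mmrn2, 0.89, 0.94 and 0.95 for Tek and 0.96, 0.91 and 0.98 for Tie1. For Tek in TG no serum myocytes r fell to 0.25 without the 2 farthest cultures, so there the relation rested on them. In WT and TG serum myocytes it was 0.96 and 0.75. Emcn had r of 0.91, 0.98 and 0.89 and passed in both serum groups. Flt4 (0.94, 0.88 and 0.66) and the arterial factor Sox17 (0.87, 0.90 and 0.41) passed in the same groups.

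S1pr1 and Prox1 ran the other way. S1pr1 encodes the main sphingosine 1-phosphate receptor of endothelium, which cardiac myocytes also make. Prox1 was at 7.70, 8.11, 7.29, 6.96, 7.70, 7.98 and 7.82 in the WT serum cultures and at 7.89, 8.29, 8.04, 8.17, 7.80, 7.15 and 8.34 in the TG serum cultures, lowest where Cdh5 was high. Its r with Cdh5 was -0.77, -0.96 and -0.98 (rho -0.57, -0.96 and -1, adjusted exact permutation p = 0.102, 0.0238 and 0.0238). S1pr1 had r of -0.85, -0.88 and -0.96 (rho -0.75, -0.71 and -0.83, adjusted exact permutation p = 0.0690, 0.0396 and 0.0390). Without the 2 farthest cultures these stayed between -0.54 and -0.91.

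Not every endothelial gene joined in. Of 32 genes, 7 passed in WT serum, 14 in TG serum (12 of them positive) and 7 in TG no serum myocytes (5 positive), by Pearson's r. By Spearman's rho the counts were 0, 5 and 2. An r above 0.7 was reached by 12, 14 and 11 genes, and by 10.9%, 16.3% and 16.8% of all genes. An r below -0.7 was reached by 2 genes in each group, Prox1 and S1pr1, and by 10.5%, 14.8% and 13.5% of all genes. The median r of the 32 genes was 0.50, 0.63 and 0.52, against 0.021, -0.070 and 0.077 over all genes. Cldn5 (claudin-5, the tight junction protein of brain and other endothelium) had r of -0.072, -0.64 and -0.40 and Gpihbp1 -0.20, -0.68 and -0.45, while Lyve1, Vwf, Sox18 and Sele had values of both signs or close to 0 in at least 1 group. Kdr, Flt1, Eng, Cd34 and Ptprb passed in TG serum myocytes alone (r = 0.87, 0.90, 0.93, 0.87 and 0.89) and Aplnr in TG no serum myocytes alone (0.94). Without the 2 cultures farthest from the median of Cdh5, r fell to 0.68, 0.65, 0.58, 0.39 and 0.28 for the genes in TG serum myocytes, and was 0.91 for Aplnr. None of these genes passed by Spearman's rho, and whether they differed from the other groups was not tested. In TG no serum myocytes Aplnr was not above background, nor were Kdr, Flt4, Sox17, Plvap, Gpihbp1 and Fabp4.

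Over the 14 serum-treated cultures, with each gene centred on its group mean, Pecam1 was the gene most like Cdh5 among 19937 (r = 0.97). Emcn was in place 16 (0.95), Mmrn2 in place 46 (0.93), Tie1 in place 53 (0.93) and Tek in place 82 (0.92), so that 5 of the 32 genes were among the first 100. These r describe the cultures and carry no test, since arrays of 2 groups and 1 normalization enter them. Without WT cultures 3 and 4 the 5 genes kept r of 0.90 to 0.97, and the median over the 32 genes went from 0.57 to 0.48. The 10 genes outside the list with the highest r were Fam91a1, Myl6 (non-muscle myosin light chain), Podxl (podocalyxin, a sialomucin of vessels and other epithelia), Oxr1, Pik3c2a (a phosphoinositide 3-kinase), Tcaf2, Dclk1, Elovl1 (a fatty acid elongase), Edem1 and Slc39a6 (a zinc transporter), all at 0.96.

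The cultures rich in Cdh5 signal were those with the least myocyte signal. In each group the culture with the highest Cdh5 had the lowest mean of the cardiac myocyte list: 10.99 in WT serum culture 3, 11.15 in TG serum culture 6, 10.58 in WT no serum culture 2 and 10.51 in TG no serum culture 5. The next lowest were 11.08 in WT serum culture 4, 11.68 in TG serum culture 5, 11.40 in WT no serum culture 5 and 10.96 in TG no serum culture 4, which were also second for Cdh5 in their groups. Cdh5 had r with this list mean of -0.94 in WT serum (rho -0.86), -0.92 in TG serum (rho -0.64) and -0.96 in TG no serum myocytes (rho -0.83). Each had an exact permutation p under 0.01 by Pearson's r (0.00258, 0.00476 and 0.00833), which became 0.0798, 0.0832 and 0.0917 after adjustment over 891 relations between endothelial genes and lists, of which 0 passed. Without the 2 farthest cultures r was -0.86, -0.60 and -0.58. S1pr1 and Prox1 moved with the myocyte list, S1pr1 at r of 0.96, 0.96 and 1.00 and Prox1 at 0.92, 0.96 and 0.92 (adjusted exact permutation p of 0.0786 to 0.0844). The part of the myocyte signal in the endothelial values was not tested.

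**Figure D3:**
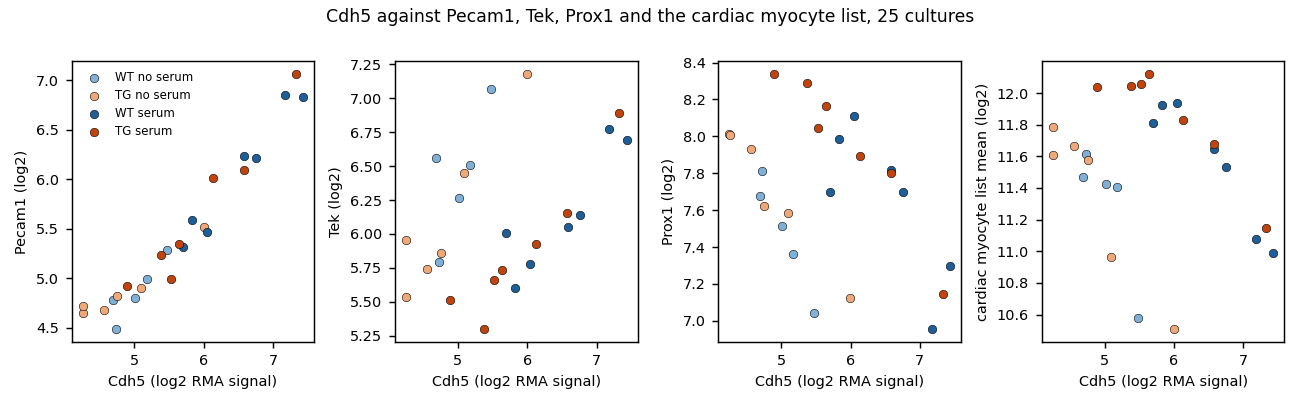
Log2 RMA signal of Cdh5 (horizontal axis) against Pecam1, Tek, Prox1 and the mean of 14 cardiac myocyte genes (vertical axes) in 25 cultures, coloured by group. Pecam1 rises with Cdh5 in every group, Tek is highest in the culture with the highest Cdh5 in 3 of the 4 groups, and Prox1 and the myocyte list mean are lowest in or next to the culture with the highest Cdh5, such as TG no serum culture 5 with a myocyte mean of 10.51.

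The other lists were set against Cdh5 in the same way. The mean of 28 further endothelial genes (Cd93, Rasip1, Fli1 and others, sharing no gene with the 34) had r of 0.79, 0.94 and 0.91 with Cdh5. The mean of the 12 genes listed as mural, which include Des and Abcc9, had r of -0.88, -0.79 and -0.68. The fibroblast list had 0.43, 0.69 and 0.37 and the epicardial and mesothelial list 0.53, 0.79 and 0.85. None of these list means passed after adjustment (adjusted exact permutation p of 0.0798 or more). How far the mural list follows mural cells or cardiac myocytes was not tested. Flt1, Eng and Kdr had r of 0.97, 0.93 and 0.90 with the fibroblast list in WT serum myocytes (adjusted exact permutation p = 0.0798, 0.0907 and 0.0843) and of 0.69, 0.74 and 0.65 in TG serum myocytes, and the difference between these groups was not tested. Eng, a TGF-beta co-receptor, and Cd34 are also made by fibroblasts of the heart. In WT no serum myocytes, Eng was at 9.42, 8.96, 8.38, 8.20 and 9.51 and Cd34 at 8.31, 7.85, 7.71, 7.18 and 8.65 in cultures 1 to 5, highest in cultures 5 and 1, whereas Cdh5 was highest in culture 2.

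With serum, most endothelial genes had lower means in TG than in WT myocytes, by small amounts, and none passed the adjusted test. Of 33 genes, 29 had a lower mean in TG myocytes (87.9%), against 55.4% of all genes, and the median difference was -0.16 log2 units against -0.016 over all genes. Since many of these genes vary together over cultures, they are not 33 separate observations. At an adjusted p under 0.05, limma called 0 of 33 and 0.00844% of all 35557 probe sets. At an unadjusted p under 0.05, 5 genes were lower in TG myocytes (15.2% of 33), against 6.31% of probe sets, and 0 were higher, against 4.39%. After median centring of the arrays, 2 genes were lower and 0 higher, against 3.02% and 9.52% of probe sets. No gene had all TG cultures below all WT cultures, as 0.155% of probe sets did. The limma p-values set each difference against the spread between these cultures. Since the litters are not given, how far that spread covers variation between litters is not known.

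The 5 genes were Cldn5, Erg, Sox18, Vwf and Sele. Cldn5 ran from 5.68 to 5.92 (median 5.81) in WT serum cultures and from 5.35 to 5.74 (median 5.66) in TG serum cultures, and all 7 TG cultures lay below the WT mean. The difference was -0.20 (SE 0.064, limma adjusted p = 0.337), a 1.15-fold lower signal. Erg, the ETS factor that keeps endothelial identity, ran from 4.90 to 5.42 (median 5.30) against 4.33 to 5.08 (median 4.83). Its difference was -0.34 (SE 0.12, limma adjusted p = 0.357), or 1.27-fold, again with 7 of 7 TG cultures below the WT mean. Cldn5 had an unadjusted p under 0.05 in each alternative run with serum, and Erg in each but the one without WT cultures 3 and 4, where Cldn5 was the only one of the 33. Sox18 kept it in 14 of 23 alternatives, Sele in 11 and Vwf in 9, and all 3 lost it after median centring, after quantile normalization again and without TG culture 6.

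Sox18, a SoxF factor of blood and lymph vessels, ran from 5.61 to 6.08 (median 5.85) in WT and 5.36 to 6.10 (median 5.58) in TG serum cultures, where culture 1 was the highest of all 14. The difference was -0.26 (SE 0.11, limma adjusted p = 0.419). Vwf, the clotting protein von Willebrand factor, ran from 5.19 to 5.54 (median 5.38) against 5.02 to 5.37 (median 5.20), a difference of -0.17 (SE 0.074, limma adjusted p = 0.435). Sele (E-selectin, which captures leukocytes on activated endothelium) ran from 5.23 to 5.89 (median 5.65) against 5.20 to 5.49 (median 5.36), a difference of -0.23 (SE 0.10, limma adjusted p = 0.435). All 7 TG cultures were below the WT mean for Vwf and Sele, and 6 of 7 for Sox18. Of the 5 genes, Erg followed Cdh5 over the serum-treated cultures (r = 0.73 within groups), while Sox18 (0.17), Sele (0.065), Vwf (-0.34) and Cldn5 (-0.44) did not follow it closely.

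**Figure D4:**
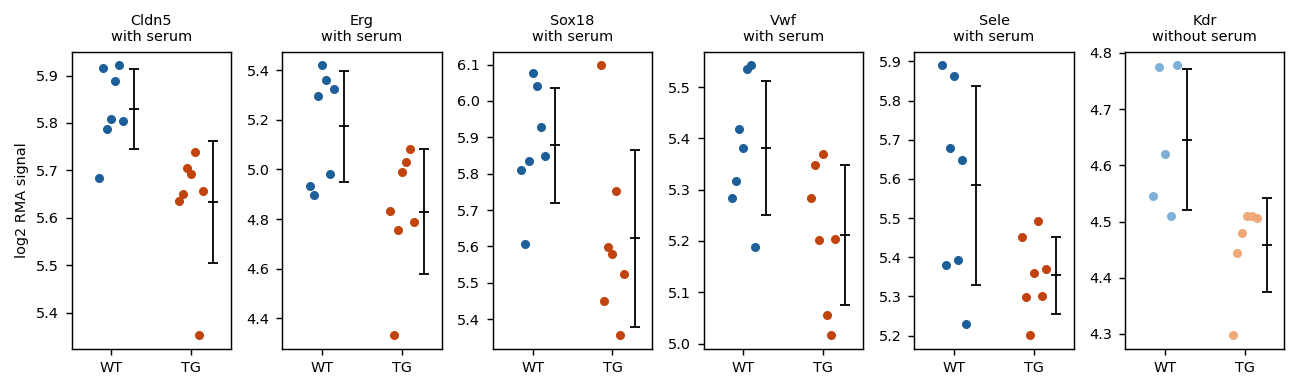
Log2 RMA signal of the 6 genes with an unadjusted p under 0.05 in limma, 5 with serum and Kdr without. Points are cultures and bars are the mean ± SD of each group, and each panel has its own vertical axis, which does not start at 0. WT and TG cultures overlap in every panel, with Kdr in TG myocytes between 4.30 and 4.51.

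Cdh5, Pecam1 and Emcn had the largest mean differences with serum, and varied widely between cultures. Cdh5 ran from 5.70 to 7.43 (median 6.58) in WT and from 4.89 to 7.33 (median 5.64) in TG serum cultures, and 5 of 7 TG cultures lay below the WT mean. The difference was -0.58 (SE 0.36, 95% interval -1.36 to 0.20, limma adjusted p = 0.583), or 1.49-fold. It was -0.26 without WT cultures 3 and 4 and -0.81 without TG culture 6. Pecam1 had medians of 6.21 and 5.35 and a difference of -0.41 (SE 0.34, limma adjusted p = 0.692). Emcn had medians of 7.31 and 6.33 and a difference of -0.41 (SE 0.36). Mmrn2 (-0.33, SE 0.32) and Tie1 (-0.29, SE 0.18) stood likewise. The intervals of all of these include 0 and also a fall of more than 1.5-fold.

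By role, the 6 genes of VEGF and angiopoietin signalling all had lower means in TG serum myocytes, with a median difference of -0.24. Kdr ran from 5.02 to 6.01 (median 5.83) in WT and 4.82 to 5.99 (median 5.57) in TG cultures, a difference of -0.28 (SE 0.19, limma adjusted p = 0.627). Tek had a difference of -0.27 (SE 0.24, limma adjusted p = 0.707), Ptprb of -0.22, Flt1 of -0.16 and Flt4 of -0.058. Of 11 junction, surface and matrix genes 10 were lower (median -0.18), including Plvap (-0.18), Eng (-0.18), Robo4 (-0.12), Esam (-0.062) and Cd34 (-0.032), and the exception was the adhesion protein Icam2 at 0.0023. Of 6 transcription factors 5 were lower (median -0.21), among them Sox17 (-0.29), Sox7 (-0.16, 7 of 7 TG cultures below the WT mean) and Tal1 (-0.0098). The secreted and enzymatic products Vwf, Egfl7 (-0.15, 7 of 7 below the WT mean) and Nos3 (-0.11), the endothelial nitric oxide synthase, were lower, as were Aplnr (-0.13), Ramp2 (-0.10, the adrenomedullin receptor partner), Gpihbp1 (-0.097) and the lymphatic hyaluronan receptor Lyve1 (-0.042). None of these passed the test.

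The genes with higher means in TG serum myocytes were Prox1, S1pr1, Fabp4 and Icam2. Prox1 ran from 6.96 to 8.11 (median 7.70) in WT and from 7.15 to 8.34 (median 8.04) in TG serum cultures. Its difference was 0.30 (SE 0.20, limma adjusted p = 0.601), with 1 of 7 TG cultures below the WT mean. S1pr1 ran from 8.51 to 9.47 (median 9.10) against 8.69 to 9.54 (median 9.34), a difference of 0.23 (SE 0.16, limma adjusted p = 0.635). These 2 genes turned with the cardiac myocyte list, of which 13 of 14 genes had higher means in TG serum myocytes (median 0.35). Of all genes, 8885 of 19938 had higher means (median -0.016). None of the 14 passed the adjusted test, and the part of the myocyte signal in the 2 differences was not tested. Fabp4 differed by 0.085 and Icam2 by 0.0023, and both fell below 0 when single cultures were left out.

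**Figure D5:**
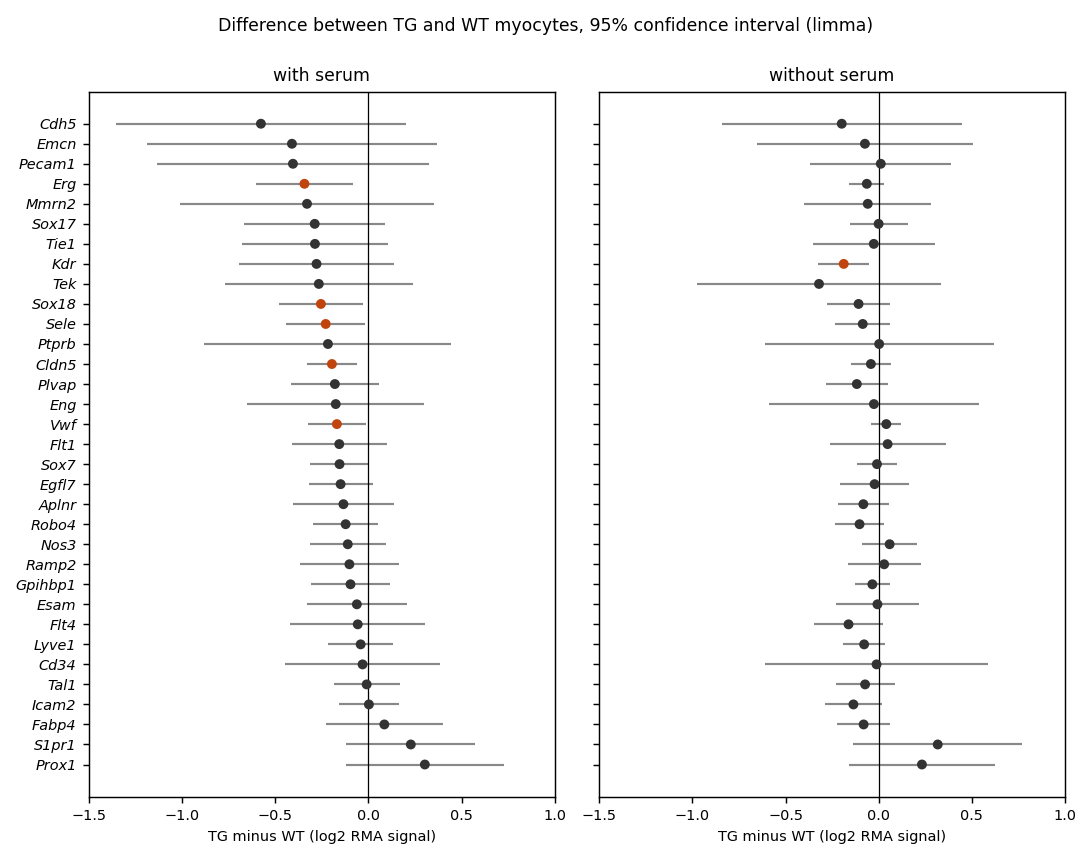
Difference in log2 RMA signal between TG and WT myocytes for 33 genes, with serum (left) and without (right), in the order of the left panel. Points are limma estimates, grey lines their 95% confidence intervals, and coloured points have an unadjusted p under 0.05. With serum 29 of 33 points lie left of 0, from Cdh5 at -0.58 to Prox1 at 0.30 on the right, and without serum 25 of 33 lie left of 0.

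Without serum, most endothelial genes also had lower means in TG myocytes, and none passed the adjusted test. Of 33 genes, 25 had a lower mean in TG myocytes (75.8%) against 54.8% of all genes, with a median difference of -0.042 against -0.0083. The adjusted test called 0 of 33 genes, as it called 0% of probe sets. At an unadjusted p under 0.05, limma had 1 gene lower (3.03% of 33), against 3.33% of probe sets, and 0 higher, against 2.31%. No gene had all TG cultures below all WT cultures, as 0.231% of probe sets did. The 1 gene was Kdr, at 4.54, 4.77, 4.62, 4.51 and 4.78 in the WT cultures and 4.30, 4.44, 4.48, 4.51, 4.51 and 4.51 in the TG cultures. All 6 TG cultures were below the WT mean, and the difference was -0.19 (SE 0.062, limma adjusted p = 0.853), at a signal near background. WT culture 4 and TG cultures 4 and 5 had the identical Kdr value of 4.51057. Without serum, Flt4, Lyve1, Aplnr, Plvap, Robo4 and Tal1, among others, also repeated a value across cultures of both genotypes. The spread and SE of such genes are therefore uncertain.

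The other 32 genes without serum had 95% intervals that included 0. Tek ran from 5.79 to 7.07 (median 6.51) in WT and from 5.54 to 7.18 (median 5.91) in TG cultures, a difference of -0.32 (SE 0.30, limma adjusted p = 0.915). Cdh5 differed by -0.20 (SE 0.29, limma adjusted p = 0.944), Erg by -0.064 (SE 0.042, limma adjusted p = 0.895) and Pecam1 by 0.011 (SE 0.17, limma adjusted p = 0.994). Icam2 (-0.14, SE 0.070), Flt4 (-0.16, SE 0.085), Robo4 (-0.10, SE 0.060), Plvap (-0.12, SE 0.075) and Lyve1 (-0.078, SE 0.052) had the next smallest p among the lower genes, and of these Flt4 and Plvap were not above background. S1pr1, at 8.69, 8.08, 8.82, 8.95 and 8.60 in WT and 9.16, 9.27, 9.24, 8.66, 8.25 and 9.08 in TG cultures, differed by 0.32 (SE 0.21, limma adjusted p = 0.895), and Prox1 by 0.23 (SE 0.18, limma adjusted p = 0.900). Vwf differed by 0.041 and was 4.93 in 4 of 5 WT cultures, with no spread between them to measure.

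TG no serum culture 5 decided much of this. Without it, 7 genes had an unadjusted p under 0.05 and were lower in TG myocytes (Aplnr, Cdh5, Fabp4, Flt4, Kdr, Sele and Tek), against 4.15% of probe sets, and 2 were higher (Prox1 and S1pr1), against 3.23%. Of these, Aplnr, Fabp4 and Flt4 were not above background in either group, nor Kdr in TG myocytes. The difference of Cdh5 was -0.43 (limma adjusted p = 0.673). With serum, TG culture 6 stood in the same place. Without it, Cdh5, Pecam1, Tek, Tie1 and Sox17 joined Cldn5 and Erg as lower at an unadjusted p under 0.05, and Prox1 was higher, against 7.00% of probe sets lower and 6.81% higher, while Sele, Sox18 and Vwf were no longer called. The counts of lower genes without WT culture 3 or 4 were 3 and 2, against 6.49% and 5.57% of probe sets. The culture with the lowest cardiac myocyte mean was also left out of every group. With serum, 2 genes were then lower (Cldn5 and Erg) and 1 higher (Prox1), against 6.54% and 5.73% of probe sets. Without serum, 1 was lower (Kdr) and 1 higher (S1pr1), against 2.89% and 2.46%. The adjusted test called 0 of 33 genes in all of these.

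The TG effect was also set against serum directly, in 1 fit over the 25 cultures. No endothelial gene passed (0 of 33, and 0.00281% of probe sets). The smallest p belonged to Vwf, whose TG effect with serum minus that without was -0.21 (SE 0.090, limma adjusted p = 1.00), then to Erg (-0.28, SE 0.15) and Cldn5 (-0.15, SE 0.084). For none of the 33 genes was the TG effect shown to depend on serum, and the change of scale between the sets enters this comparison.

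Further genes of vessels were taken from lists written beside the 34. Of 28 further endothelial genes, 23 had lower means in TG myocytes with serum (82.1%, against 55.4% of all genes, median -0.088). Without serum 23 did (82.1%, against 54.8% of all genes, median -0.046). Clec14a, Bcl6b, Stab2, Mmrn1, Gimap4, Gimap6 and Car4 were not above background in either set. Without serum, Myct1, Adgrf5, Adgrl4, Gata2 and Hhex were not above it either. With serum, 2 of them (7.14%) were lower at an unadjusted p under 0.05, against 6.32% of all genes. These were the transcription factor Hhex at -0.20 (SE 0.083) and Cyyr1 at -0.50 (SE 0.22). Without serum 1 was lower (3.57%, against 2.56% of all genes), Gimap4 at -0.10, which was not above background. Of 29 genes of vessel signalling, 16 were lower with serum (55.2%, against 55.4% of all genes, median -0.058). Without serum 20 were lower (69.0%, against 54.8% of all genes, median -0.060). At an unadjusted p under 0.05 with serum, 2 of these were lower (6.90%, against 6.32% of all genes). They were the receptor Notch1 (-0.31, SE 0.11) and the Tek ligand Angpt2 (-0.30, SE 0.13). The VEGF co-receptor Nrp1 was higher (0.22, SE 0.10), as were 4.39% of probe sets. Without serum the Notch ligand Jag2 was lower (-0.32, SE 0.14), 3.45% of this list against 2.56% of all genes. None passed the adjusted test.

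Markers of other cells were compared between genotypes as well, and none passed the adjusted test. Their part in the endothelial differences was not tested. With serum, 8 of 12 epicardial and mesothelial genes were lower in TG myocytes, 4 of them (33.3%, against 6.32% of all genes) at an unadjusted p under 0.05 (Lrrn4 at -0.72 with a limma adjusted p of 0.172, Upk1b at -0.81, Bnc1 at -0.36 and Wt1 at -0.16), with list means of 7.29 to 7.79 in WT and 7.20 to 7.59 in TG cultures. Bnc1 and Muc16 of that list were not above background. The cardiac myocyte list had means of 10.99 to 11.94 in WT and 11.15 to 12.12 in TG serum cultures. The fibroblast list had 7 of 12 genes lower (median -0.025), the mural list 7 of 12 higher (median 0.041) and the macrophage list 7 of 11 higher (median 0.23). Lower genes were thus 58.3%, 41.7% and 36.4% of these lists, against 55.4% of all genes. The other markers with an unadjusted p under 0.05 with serum were Myl3 (0.57) of the myocyte list, Abcc9 (0.58) and Notch3 (-0.27) of the mural list, Itga2b (-0.19) of platelets and Slc4a1 (-0.22) of erythroid cells. Erythroid and platelet genes were near background, with Alas2, Epb42 and Rhag and with Ppbp and Gp9 below it.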

How the data were processed

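RNA of 25 myocyte cultures was hybridized to Affymetrix Mouse Gene 1.0 ST arrays. The authors processed the arrays by RMA, with Expression Console 1.1 named in the submitters' processing notes, and the deposited table holds the normalized log2 signals of 35557 probe sets. All 25 of its columns were used. Whether all arrays were normalized together is not given in the sources used here. Groups came from the sample labels. Arrays have no counting depth, so their number limits the precision. TG and WT cultures were compared within each serum set with limma 3.58.1 (lmFit, eBayes) in R 4.3.3, all probe sets, with Benjamini-Hochberg adjustment at 0.05, and the code was tested on simulated data. Of the probe sets, 21789 named 1 gene, 1621 several and 12147 none, and the brightest per gene was kept. Correlations were tested by exact permutation, two-sided. Genes given in full were those with the smallest p in each set, Cdh5, Pecam1, Kdr, Tek, Erg and the 4 that turned most against the rest. Members and lists were chosen with earlier results of these data known. Alternatives were median centring, a second quantile normalization, weights per array, eBayes with a trend on the mean, removal of probe sets with a mean log2 below 5, a replicate block, 1 fit over all arrays, each culture left out, WT serum cultures 3 and 4 left out and, added after seeing the data, the culture with the lowest myocyte mean of each group left out.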

Additional observations from a re-analysis of the deposited data

Results flagged for a closer look

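A single culture far from the others of its group was looked for in 132 sets of 33 genes by 4 groups, with Dixon's test at the 95% level, and 15 sets had one. Chance marks about 1 in 20 groups, and genes that vary together are not separate sets. Without serum, TG culture 5 was high for Pecam1 (5.52, the others 4.65 to 4.90) and for Esam (6.27, the others 5.82 to 5.90). TG culture 6 was high for Flt1 (6.66) and Vwf (5.05), TG culture 4 was high for Robo4 (4.78), and TG culture 1 was low for Kdr (4.30) and Sox17 (3.94). WT culture 2 was high for Flt4 (4.85, the others 4.51 to 4.59). WT culture 5 was high for Esam (6.28), Egfl7 (6.23) and Sele (4.95), and WT culture 4 was low for Vwf (4.83), where the other 4 cultures had 1 value, 4.93. With serum, the marked values were low ones in TG myocytes: Cldn5 in culture 6 (5.35, the others 5.64 to 5.74), Plvap in culture 7 (5.59, the others 6.06 to 6.38) and Aplnr in culture 1 (4.23, the others 4.67 to 4.93). Cldn5 was thus lowest in the TG serum culture with the highest Cdh5.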

How the results depend on the processing

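No endothelial gene passed the adjusted test in any of 23 alternatives with serum and 19 without. The count of genes with lower means in TG myocytes ranged from 23 to 31 with serum and from 18 to 28 without, out of 33 genes. The exceptions were the runs that left out dim probe sets, where fewer genes were tested. There 25 were lower with serum, and 11 without serum, which is below that range. The median difference ranged from -0.18 to -0.073 and from -0.089 to -0.011. Genes lower at an unadjusted p under 0.05 with serum, 5 in the report, were 2 after quantile normalization again, 2 after median centring, 2 without the culture of lowest myocyte mean in each group, 1 without WT cultures 3 and 4, and 2 to 7 with single cultures left out. Of all probe sets, 6.54% were lower without the lowest myocyte cultures, 5.94% without WT cultures 3 and 4 and 5.23% to 7.32% with single cultures left out. Genes higher were 1 with array weights, 1 without the lowest myocyte cultures and 0 to 1 with single cultures left out. Probe sets higher in these settings were 6.85%, 5.73% and 3.19% to 6.81%. Without serum, where 1 was lower, there were 2 with array weights, 0 without dim probe sets, 0 in 1 fit over 25 arrays and 1 to 7 with single cultures left out. Probe sets lower in these settings were 4.44%, 2.65%, 1.13% and 2.54% to 4.29%. Genes higher were 1 without the lowest myocyte cultures and 0 to 2 with single cultures left out, against 2.46% and 1.80% to 3.23% of probe sets. With serum, median centring turned the balance over all probe sets too, with 3.02% lower and 9.52% higher at an unadjusted p under 0.05 (6.31% and 4.39% in the report) and 38.4% of genes lower, and after quantile normalization again 5.08% were lower and 4.81% higher. Without serum, median centring gave 1.64% lower and 4.92% higher. Array medians with serum were 5.21 to 5.33 in TG and 5.26 to 5.36 in WT myocytes. Centring takes them away, so it moved the differences of all genes in a set by the same amount. With serum, Cldn5 went from -0.196 to -0.147 and Erg from -0.344 to -0.295. The cause of the other changes was not tested beyond the smaller number of genes or cultures.

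Replicate numbers are shared between groups in the labels, but same-numbered cultures did not deviate together (r of -0.36 to 0.062 with serum and -0.45 to 0.15 without), so the labels' numbers were not taken to pair cultures. The study's own numbering of the cultures without serum differs from that of the labels, so there the check and the block may not set matched cultures side by side. With a replicate block, which without serum drops TG culture 6, 4 genes with serum and 2 without were lower at an unadjusted p under 0.05. Of all probe sets, 4.83% and 3.54% were lower in these runs. Flt1 without serum turned to -0.035 with the block. Other differences near 0 turned sign as well. Icam2 with serum was -0.019 with array weights and -0.043 to 0.037 with single cultures left out. Fabp4 with serum was -0.00027 without the lowest myocyte cultures and -0.023 to 0.13 with single cultures left out. Pecam1 without serum was -0.043 with array weights, -0.012 without the lowest myocyte cultures and -0.12 to 0.12 with single cultures left out. Flt1 without serum was -0.0060 and -0.035 to 0.17 in the same settings. At the 99th percentile of olfactory genes, 13 (WT) and 12 (TG) genes were above background without serum and 23 and 21 with serum. The share of all genes above that level was not computed. Averaging over the probe sets of a gene was not run, since each gene had 1.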
